A study of Mus musculus with 7 samples.

Results

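The genes described are Prg2, Prg3, Ear2 and Fcer1a, which are 4 genes known from eosinophils and basophils. They were taken by gene symbol from the table of the authors' own comparison, in which each has 1 gene model. That table lists 769 gene models of the 11778 behind the authors' adjustment, and each of the 4 genes is on it. The libraries come from bone marrow cells sorted as lacking lineage markers and Sca1 and carrying cKit, CD150 and CD41, the surface phenotype of progenitors that make megakaryocytes and platelets. The labels give 3 libraries from young mice of 3 months and 4 from old mice of 18 to 20 months. All mice, the young controls included, were bred from Flt3-Cre and mTmG parents. The reporter mTmG turns a cell and its progeny from Tomato to GFP once Cre, here under control of Flt3, has acted. The strain label is C57BL/6 for 6 libraries and C57BL/7 for 1 old library. Tomato-positive or GFP-positive fractions were sorted, and the labels do not say which library holds which. The young titles share 1 prefix and the old titles carry 2, so a difference by age cannot be told apart from a difference between these kinds of title. The group read here as old bears a name in the comparison that matches no single title. Nothing in the labels ties each library to its own mouse, and differences between libraries may be technical. The authors' p-values may also draw on samples outside this series, so they are not read as the spread of these libraries alone.

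Eosinophils store cationic proteins in their granules. Prg2 encodes major basic protein, the main protein of the granule core, and Prg3 encodes a related protein. Ear2 belongs to the eosinophil-associated ribonucleases, a rodent branch of the RNase A family whose members stand as near-identical copies in clusters. Fcer1a encodes the IgE-binding alpha chain of the high-affinity IgE receptor, which in mice marks basophils and mast cells, and which needs the gamma chain Fcer1g to reach the cell surface. Both cell types arise in bone marrow from progenitors that express the transcription factors GATA1 and GATA2, which megakaryocyte progenitors use as well.

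The promoter windows of the members are shown with matches to GATAA marked, because GATA factors were named above for these lineages. Whether GATA factors act on these genes was not tested. The sequences are RefSeq's on GRCm38.p6, from 250 bases before to 50 bases after the start, and Prg3, Ear2 and Fcer1a matched an entry. Ear1, the close copy of Ear2, is shown for comparison. Capitals mark GATAA on either strand, which reads TTATC on the other strand. A match is a run of letters, not a binding site.
Prg3, chr2:84987965-84988264, plus strand: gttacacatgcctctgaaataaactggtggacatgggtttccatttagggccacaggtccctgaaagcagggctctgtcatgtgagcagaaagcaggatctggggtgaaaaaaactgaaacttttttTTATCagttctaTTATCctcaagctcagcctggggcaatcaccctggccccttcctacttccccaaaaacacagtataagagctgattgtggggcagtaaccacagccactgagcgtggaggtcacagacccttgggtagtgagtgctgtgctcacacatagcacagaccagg
Ear2, chr14:44102404-44102703, plus strand: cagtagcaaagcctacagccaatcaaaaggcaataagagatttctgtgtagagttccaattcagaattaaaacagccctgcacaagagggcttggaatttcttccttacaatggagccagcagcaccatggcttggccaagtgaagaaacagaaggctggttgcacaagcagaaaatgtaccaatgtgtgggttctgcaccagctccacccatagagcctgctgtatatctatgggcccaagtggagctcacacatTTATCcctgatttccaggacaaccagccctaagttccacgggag
Ear1, chr14:43819590-43819889, minus strand: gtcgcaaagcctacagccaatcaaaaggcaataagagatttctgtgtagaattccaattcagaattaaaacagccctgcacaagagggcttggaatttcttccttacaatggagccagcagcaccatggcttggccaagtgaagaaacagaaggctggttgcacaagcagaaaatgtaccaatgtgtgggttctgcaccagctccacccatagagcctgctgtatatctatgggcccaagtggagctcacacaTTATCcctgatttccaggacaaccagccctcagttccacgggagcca
Fcer1a, chr1:173227180-173227479, minus strand: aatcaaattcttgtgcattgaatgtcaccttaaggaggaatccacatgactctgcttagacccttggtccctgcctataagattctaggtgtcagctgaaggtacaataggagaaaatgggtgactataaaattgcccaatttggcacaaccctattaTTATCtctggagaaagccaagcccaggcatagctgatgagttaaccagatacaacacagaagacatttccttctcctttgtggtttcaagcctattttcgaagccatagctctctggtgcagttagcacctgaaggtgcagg
The Prg3 window held 2 matches and the windows of Ear2, Ear1 and Fcer1a held 1 each, all reading TTATC on the strand shown. The matches of Ear2 and Ear1 fell within the 50 bases after the start. Of 32851 promoter windows in the RefSeq table, 25.4% held at least 1 match. The windows of Ear1 and Ear2 were identical at 294 of 303 aligned positions (97.0%).

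All 4 members were higher in old than in young. Prg2, Prg3, Ear2 and Fcer1a were each listed by the authors' deposited table with an adjusted p below 0.05. Of all gene models tested 4.13% had such a call, 2.56% as higher and 1.57% as lower. The members were chosen with these calls known, so nothing is read from that count. The 4 genes differed widely in level. For a per-length scale, the old means of the authors' deposited table were divided here by transcript length. Prg2 came to 1531 normalized counts per kilobase of its transcript, against 71.5 for Ear2, 44.7 for Fcer1a and 19.7 for Prg3. The old level of Prg2 was thus 21.4 times that of Ear2 and 77.9 times that of Prg3. In bulk RNA, more cells that carry a transcript and more of the transcript per cell cannot be told apart.

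Young values could be resolved further than a mean. A normalized count is a whole number of reads divided by the size factor of its library, and the low young means in the authors' deposited table were sums of whole multiples of 3 steps, 0.362, 0.466 and 0.512, each the worth of 1 read in 1 of the 3 libraries. The steps were found and fitted on the young means up to 3, so those means are no separate check of them. All 118 young means above 0 and up to 10 came out as 1 sum of these steps within 2e-06. The reads of each young library are therefore given below, in the order of the 3 steps, which are not matched to replicate numbers. The reads behind the old means were not recovered, so the old group has a mean and no value per library.

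Prg2, the granule core protein, had 22, 12 and 21 reads in the 3 young libraries, which are 23.9, 16.8 and 32.2 normalized counts. Every young library thus held Prg2 at a low level, and the highest was less than double the lowest. At this level 0.0513 sums of reads would fall within the tolerance of 7.5e-06 on average, and 1 was found. The authors' deposited table gives group means of 24.3 in young and 1283 in old, a ratio of 52.8. The log2 fold change of Prg2 was 5.72 (SE 1.55, adjusted p = 0.0129) per the authors' deposited table. The old mean stood far above all 3 young libraries, while the 95% interval of the log2 fold change ran from 2.68 to 8.77.

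Prg3, the neighbour and relative of Prg2, had no read in any young library. It was listed at 0 in young and at 18.7 normalized counts in old in the authors' deposited table, so no ratio is given. A count of 0 allows a young mean of up to 1.54 (3 reads over the group, counting error only). Prg2 lies at chr2:84980461-84983632 and Prg3 at chr2:84988215-84993886, both on the plus strand of mm10, with 4582 bases between them. Of the 6 protein-coding genes within 100 kb of Prg2, Prg3 was the 1 listed. Their transcripts were identical at 56.8% of aligned positions and shared no stretch of 50 bases with each other or with the transcript of any other gene.

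The fold change deposited for Prg3 stood apart from its means. It was 20.37 on the log2 scale with an SE of 2.63, both the highest among the 769 gene models of the authors' deposited table, and the adjusted p was 1.62e-11. The next highest log2 fold change in the authors' deposited table was 7.20, for Siglece. Evc had nearly the same means as Prg3, at 0 in young and 19.5 in old, and its log2 fold change was 6.33 (SE 2.01, adjusted p = 0.0446) per the authors' deposited table. Chil4, at 0 and 19.8, had 6.34 (SE 2.09, adjusted p = 0.0551) per the authors' deposited table and was not called. The other 9 gene models with a young mean of 0 had log2 fold changes from 3.80 to 7.20 in the authors' deposited table, and 4 of them were called. The rank of Prg3 by p, at 7 of 769, thus rests on a fitted coefficient that gene models with almost equal means did not receive. A fitted fold change against a group at 0 is no measure of size, and for Prg3 the means are the values to read.

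**Figure D1:**
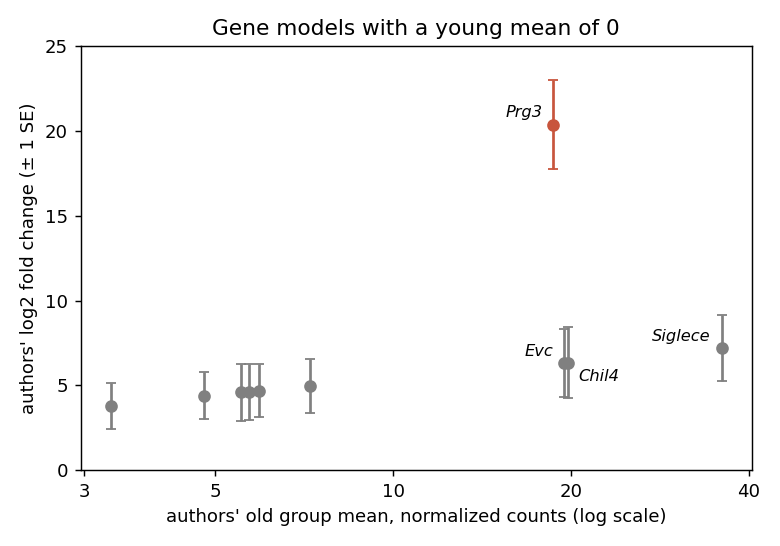
The authors' log2 fold change with 1 SE on each side (vertical axis) against the old group mean in normalized counts (horizontal log axis) for the 10 gene models with a young mean of 0. Prg3 stands at 20.37, while Evc and Chil4, with almost the same old mean, stand at 6.33 and 6.34.

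Ear2, an eosinophil-associated ribonuclease, had 1, 0 and 4 reads in the 3 young libraries, which are 1.09, 0 and 6.14 normalized counts. Its young level was near the limit of detection, and 1 library held no read. The group means were 2.41 in young and 51.4 in old in the authors' deposited table, a ratio of 21.3. The log2 fold change was 4.46 (SE 1.29, adjusted p = 0.0223) per the authors' deposited table. The 95% interval computed from this SE ran from 1.93 to 7.00. The level of Ear2 is uncertain, since 41.5% of the 50-base stretches of its transcript also occur in transcripts of 5 other genes, most often Ear10. The long non-coding RNA gene Gm49101 overlaps it on the opposite strand, and no source used here gives the strand setting of the counting. Ear2 lies at chr14:44102654-44103534 on the plus strand of mm10.

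Ear1 and Rnase4 were the other listed RNase A genes. Ear1 had 1, 0 and 1 reads in the young libraries and went from a mean of 0.874 to 55.2 in the authors' deposited table, without passing (log2 fold change 5.98, SE 2.14, adjusted p = 0.0856). Its transcript is identical to that of Ear2 at 96.0% of aligned positions, so the authors' counting could have split or moved reads between them. Rnase4, a ribonuclease of wide expression, had 1, 2 and 4 reads in the young libraries. It rose from 3.34 to 47.6 (3.88, SE 1.02, adjusted p = 0.00978) per the authors' deposited table, and it overlaps Ang, which has no value here.

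Fcer1a, the IgE receptor alpha chain, had 0, 1 and 0 reads in the 3 young libraries. A single read in 1 library is therefore the whole young signal, a mean of 0.466 normalized counts. The old mean was 44.6 in the authors' deposited table, 95.8 times the young mean, and the exact Poisson interval of 1 read alone (0.0253 to 5.57 reads, 95%) puts this ratio between 17.2 and 3782. The log2 fold change of Fcer1a was 6.55 (SE 1.48, adjusted p = 0.00138) per the authors' deposited table, the largest of the members with a young mean above 0 and rank 4 of all listed gene models. The 50-base stretches of its transcript occur in no other gene's transcript. Fcer1a lies at chr1:173221284-173227214 on the minus strand of mm10, and none of the 6 protein-coding genes within 100 kb was listed.

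**Figure D2:**
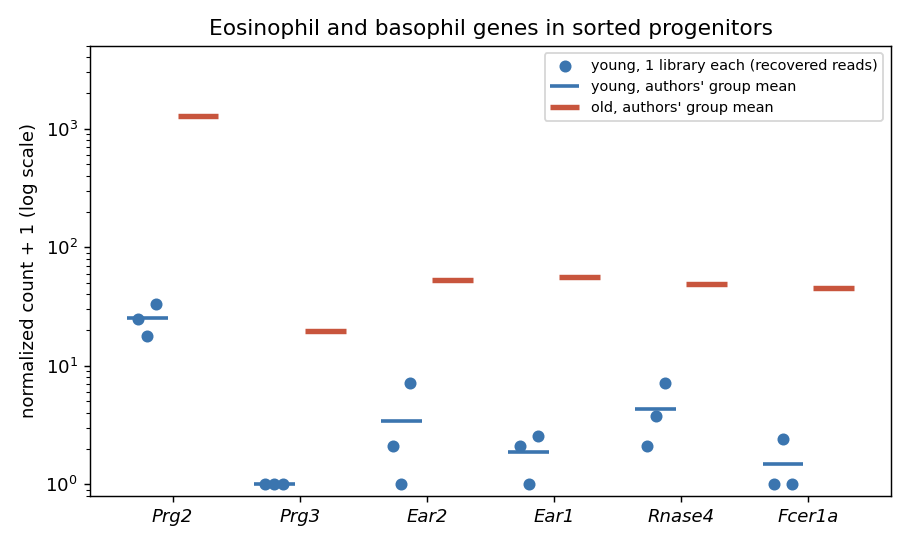
Normalized counts plus 1 (vertical log axis) of the 4 members and of Ear1 and Rnase4. Points are single young libraries from recovered reads, and lines are the authors' group means of young and old. Each old mean lies above all 3 young libraries, and Prg2 alone has over 10 reads in each young library.

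By log2 fold change the members with both means above 0 ran from Fcer1a through Prg2 to Ear2. Their 95% intervals overlap, from 3.65 to 9.45 for Fcer1a, from 2.68 to 8.77 for Prg2 and from 1.93 to 7.00 for Ear2, and the differences between them were not tested because the genes share libraries. The SEs in the authors' deposited table were large. The SE of Prg2 exceeded that of 96.4% of all higher calls, that of Fcer1a 93.7% and that of Ear2 88.1%, against a median SE of 0.62 over the higher calls. What made these SEs large was not tested, since the old group has no value per library.

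**Figure D3:**
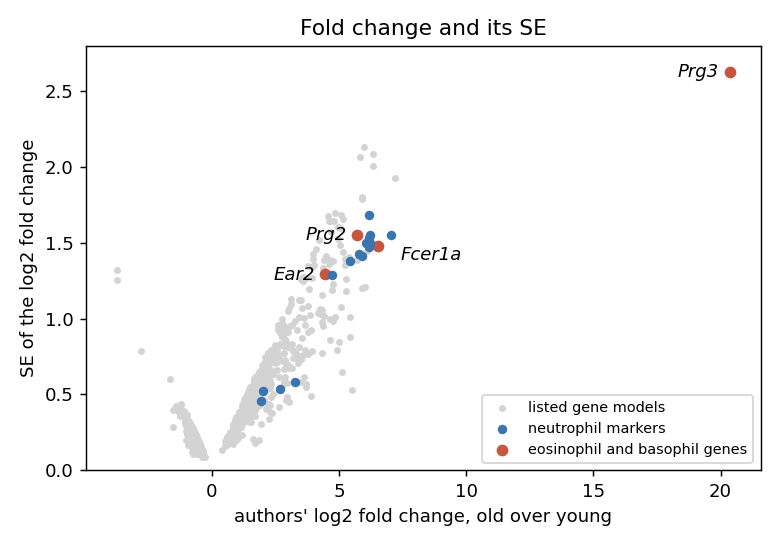
The SE (vertical axis) against the old-over-young log2 fold change (horizontal axis) for the 769 gene models of the authors' deposited table, with the 4 members and the 15 listed neutrophil markers in colour. Prg2, Ear2 and Fcer1a lie among the neutrophil markers with large changes, and Prg3 lies apart at 20.37 and 2.63.

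The listed gene models most like each member were found by the distance between log2 values of the means plus 1, over the 2 group means. Nearest to Prg2 was Fcnb, a ficolin of the innate immune system, at 25.6 in young and 1327 in old in the authors' deposited table, with an SE of 1.55 equal to that of Prg2 (distance 0.0869). The MHC class II gene H2-Aa and Clca2 came next, at distances of 0.436 and 0.455, and H2-Aa had a smaller SE (0.65) at much the same means in the authors' deposited table. Nearest to Ear2 were Ncam1, Pilrb1 and Mapk13 (distances 0.127, 0.155 and 0.252). Nearest to Fcer1a was Ear1 (0.465), then Siglece and Mrgpra2b, and nearest to Prg3 were Evc, Chil4 and Siglece, all at 0 in young.

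Most other genes of these cells have no value among the listed gene models, and the 4 further ones that were called had smaller log2 fold changes than the members. Of 65 genes in an eosinophil, basophil and mast cell list that includes the members, 10 were listed and 8 were called, all higher, against 2.56% called higher among all gene models tested. The 4 members are among these 8, and their part in the count was known when the list was made. The other 4 calls were Rnase4, Alox5ap, S1pr4 and Csf2ra. Alox5ap, which helps start leukotriene synthesis, rose from 1056 to 2476 (1.23, SE 0.35) per the authors' deposited table. S1pr4, a sphingosine 1-phosphate receptor of blood cells, rose from 361 to 1057 (1.55, SE 0.39) per the authors' deposited table. Csf2ra, the alpha chain of the GM-CSF receptor, rose from 399 to 1124 (1.50, SE 0.32) per the authors' deposited table. These 3 genes were plentiful in young cells and are also made by other myeloid cells. Slc18a2, the vesicle transporter that loads histamine in mast cells and monoamines in platelets, was listed at 92.7 and 221 (1.25, SE 0.42, adjusted p = 0.0595) per the authors' deposited table and was not called.

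The median log2 fold change of the 4 called genes that are not members was 1.52, against 2.37 over all higher calls in the authors' deposited table. The remaining 55 genes of the list have no value here, among them the eosinophil peroxidase gene Epx, the IL-5 receptor gene Il5ra, the eotaxin receptor gene Ccr3, the eosinophil lectin gene Siglecf, the mast cell protease gene Cpa3, the basophil protease gene Mcpt8 and the histidine decarboxylase gene Hdc. Being unlisted says that a gene did not reach an adjusted p of 0.1 or was not tested, not that it was absent. Of the 19 Fc receptor and IgE receptor signalling genes, Fcer1a was the 1 listed, and its partner chains Ms4a2 and Fcer1g have no value here.

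**Figure D4:**
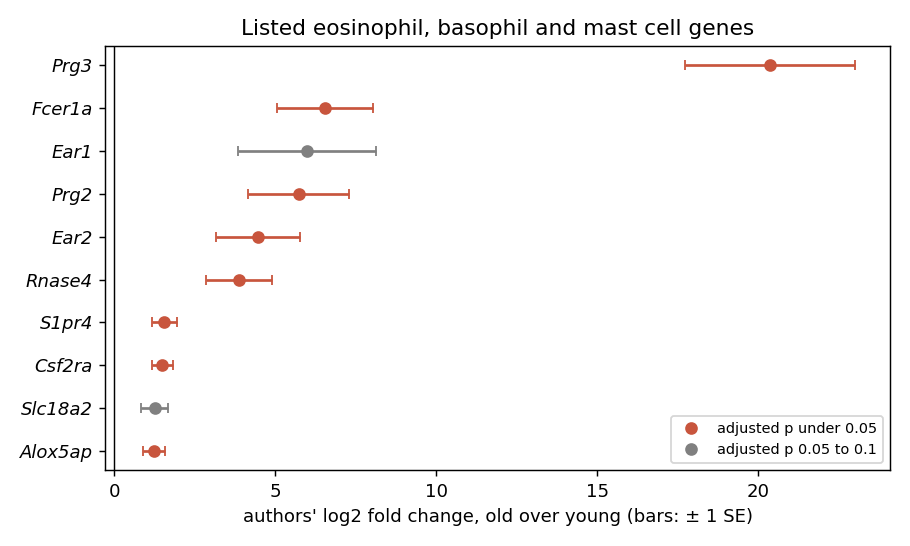
The authors' old-over-young log2 fold change, with 1 SE on each side, (horizontal axis) for the 10 listed genes of the eosinophil, basophil and mast cell list. Colour marks an adjusted p under 0.05. Rnase4, the members and Ear1, which was not called, lie at 3.88 or above, and S1pr4, Csf2ra, Slc18a2 and Alox5ap lie between 1.23 and 1.55.

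Of 16 transcription factors of these lineages, 3 were listed and 2 were called, both higher, against 2.56% called higher among all gene models tested. Spi1, which encodes PU.1 of the myeloid lineages, rose from 458 to 1267 (1.47, SE 0.39) per the authors' deposited table. Id2, an inhibitor of basic helix-loop-helix factors, rose from 10.3 to 44.4 (2.11, SE 0.59) per the authors' deposited table. Cebpe, a factor of late granulocyte maturation in both neutrophils and eosinophils, was listed at 15.6 and 395 (4.66, SE 1.65, adjusted p = 0.0823) per the authors' deposited table without passing. Gata1 and Gata2 have no value here.

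Listed markers of other cell types moved with the members, and their part in these results was not tested. Gene models at an adjusted p of 0.1 or above have no value, so the sums below cover only markers that changed. Of all gene models tested, 2.56% were called higher. Of 21 neutrophil markers 15 were listed and called, all higher, and their summed mean went from 5557 in young to 102986 in old in the authors' deposited table. Their log2 fold changes ran from 1.92 to 7.05 and their SEs from 0.46 to 1.68, a range that holds those of Prg2, Ear2 and Fcer1a. Of 18 monocyte and macrophage markers 7 were listed and 3 were called, all higher, with a summed mean of 567 in young and 5478 in old in the authors' deposited table. Of 16 lymphoid and dendritic markers 2 were called, with a summed mean of 3.26 in young and 42.4 in old, and of 12 erythroid markers 2 were called, with 977 and 6431, in the authors' deposited table. No listed marker of these 4 lists was at 0 in either group. In the list of megakaryocyte genes and gate antigens 3 of 19 were listed and 2 were called, both higher. Ly6a, which encodes the Sca1 antigen that the sort selected against, rose from 23.5 to 98.8 (2.08, SE 0.67, adjusted p = 0.0499) per the authors' deposited table. Selp, the platelet adhesion receptor P-selectin, rose from 496 to 2358 (2.25, SE 0.68, adjusted p = 0.0304) per the authors' deposited table. The gene of the gate antigen CD150, Slamf1, was at 79.3 and 228 without passing (1.54, SE 0.55, adjusted p = 0.0856) per the authors' deposited table. Itga2b and Kit, which encode CD41 and cKit, have no value here, so the labelled cell type could not be checked against the levels of these 2 genes.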

How the data were processed

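RNA-seq libraries (3 young, 4 old) were prepared from Trizol-extracted RNA of sorted progenitors with NEBNext Ultra reagents, per the labels' protocols. The submitters' processing notes name mm10, DESeq, STAR and Bowtie2 without versions. No source used here gives the counting method. The authors deposited 1 table of their comparison. Per the file headers, it holds normalized counts averaged by group and over 14 samples (a scaled signal), the old-over-young log2 fold change and SE, and the DESeq Wald score, p-value and adjusted p-value. All listed adjusted p-values are under 0.1, so other gene models have no value here. The authors' adjustment covered 11778 gene models, as computed from the deposited p-values. Calls are at the authors' adjusted p under 0.05. The table cannot be refitted. The 14-sample mean allows at most 4.08 old libraries; some of the 14 samples lie outside this series, and the authors' SEs may rest on them too. No source used here gives total counts per library, so depth is known only through the worth of 1 read in each young library.

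Young reads were recovered from the steps in the low young means, with a method tested on simulated data. The simulated data always held a value of 1 read for each library. Only values up to 5 were scored, which is below the young mean of Prg2. Counting intervals cover counting error only. Transcripts are GENCODE M21's; alignments used Biopython 1.88. The members and gene lists were chosen with earlier results of these data known. Named genes are the members, every listed gene of the eosinophil, basophil, mast cell, Fc receptor, cytokine receptor and transcription factor lists, the 3 nearest gene models of each member and listed neighbours within 100 kb. Siglece as the next highest fold change was named after its value was seen, as were the unlisted genes. The alternatives tried were other adjusted p limits, a minimum mean of 50, a minimum log2 fold change of 1, 2 recentrings of all fold changes, and pseudocounts of 1 and 5.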

Additional observations from a re-analysis of the deposited data

Results flagged for a closer look

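The 14-sample mean of the authors' deposited table covers libraries outside the 2 groups compared. With 3 young and 4 old libraries behind the group means, which the table allows, the mean over the other 7 samples follows by subtraction. It is 1350 normalized counts for Prg2, 33.9 for Prg3, 44.5 for Ear2 and 4.25 for Fcer1a, each above the young mean. No source used here says what those samples are. For Prg2, Prg3 and Ear2 the old group held 35.0%, 23.9% and 39.2% of the 14-sample sum, and for Fcer1a it held 85.2%.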

How the results depend on the processing

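No paired analysis was possible because the deposited table holds group means and no value per library. For the same reason the omission of single libraries was not run. An adjusted p limit of 0.01 left 139 higher and 41 lower calls, 5 calls of the eosinophil, basophil and mast cell list and 2 members, Prg3 and Fcer1a, against 302, 185, 8 and 4. A limit of 0.1 gave 432 higher and 337 lower. A minimum mean of 50 left 198 higher calls, 4 of the list, and Prg2 as the 1 member. A minimum log2 fold change of 1 left 16 lower calls. Calls after recentring covered only the listed gene models, at a fixed p limit of 0.00206 in the Wald test redone from the authors' SEs. Recentring on the median of the lower calls (-0.72 on the log2 scale) gave 438 higher and 0 lower calls, and all 4 members stayed called. Recentring on the median of all listed gene models (0.95) gave 79 higher and 338 lower calls and 2 of the list. Under it Prg2 at 4.77 and Ear2 at 3.51 missed the call in the Wald test redone from the authors' DESeq SE, and Fcer1a passed. Prg3 passed every limit on p and both recentrings on its deposited coefficient of 20.37, so its passing says nothing about stability. No setting reversed a member. Pseudocounts moved the members with few young reads. With 1 added to the means Prg3 came to 4.30 and Fcer1a to 4.96 on the log2 scale, and with 5 added Prg3 came to 2.24, Ear2 to 2.93 and Fcer1a to 3.18. Prg2 moved by less than its SE under both. Of 40 values under alternatives, 22 kept their direction and call or stayed within 1.5 times or 1 SE. These 22 include the counts of lower calls of the list, which stayed at 0 because all its listed genes were higher. They also include both recentrings of Prg3, so the tally is no measure of stability. The young levels of Ear2 and Fcer1a rest on 5 reads and 1 read, and the depth of the old libraries is unknown.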
